A study of Mus musculus with 23 samples.

Results

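The genes described here run mitosis: 45 mouse genes chosen by name from textbook knowledge of the mitotic machinery, of which 42 had a probe set that names only that gene. Where several probe sets named a gene, that of the highest mean log2 level over all 23 arrays was read, and 12393 genes were measured in this way. Ccnb1, Espl1 and Cdca8 had no such probe set in the annotation used and were not analysed here. The arrays came from embryonic fibroblasts (MEFs, E13.5) and from CD8+ T cells of mice aged 10 to 15 weeks. The fibroblast groups were Ezh2-deficient and Snf5 Ezh2-deficient, of 3 arrays each, and wild type, of which the labels list 3 arrays as the control of either mutant. The T cell groups were purified wild-type CD8+ T cells, with 6 arrays, and Snf5-deficient lymphomas from which CD8+ cells had been purified, with 5. Ezh2 is the PRC2 enzyme that methylates histone H3 at repressed genes. Snf5, the product of Smarcb1, belongs to the core of SWI/SNF, which remodels nucleosomes. The study's title concerns antagonism between both proteins during transformation. The alleles, the means by which each gene was removed, the mouse strains and the passage of the MEFs are not stated in the labels.

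A cell enters mitosis when cyclin B binds and activates Cdk1, after which Plk1 and the Aurora kinases drive spindle formation and condensin compacts the chromosomes. The spindle checkpoint holds the anaphase-promoting complex in check until every kinetochore is attached, and Cdc20 then activates the complex, securin and cyclin B are destroyed and the chromatids separate. Most of these genes are transcribed only late in the cycle, through Foxm1, Mybl2 and the MuvB complex, so that a population with more dividing cells holds more of their RNA. In such bulk samples, fewer dividing cells and less RNA in each dividing cell cannot be told apart.

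Promoter windows of RefSeq (build GRCm38.p6, 250 bases before the annotated start and 50 from it on) were at hand for 38 of the 45 genes. They were searched on both strands for the cell cycle genes homology region (TTTGAA, or its variant TTCGAA) and for CCAAT, which are the motifs bound by MuvB complexes and by NF-Y. The homology region was present in 29 of the 38 genes (76.3%), against 19.2% of all 32851 windows, and CCAAT in 29 of 38 (76.3%), against 37.4%. Both stood in 26 of 38 genes (68.4%), against 7.52% of all windows. Among the genes called lower in Ezh2-deficient MEFs (below), 12 of 17 with a window held both (70.6%), and 12 of 18 among the other measured genes (66.7%). The 6 genes with neither were Mad2l1, Pttg1, Nuf2, Birc5, Nusap1 and Ncaph, and 4 of these were called lower. The following stretches of 150 bases run 5′ to 3′ on the gene's strand from 120 bases before the start through the first 30 bases, with the motif letters in capitals. They are shown because 5 of these genes are among the values below and carry both motifs, while Pttg1, the only gene with a difference above 0 in Ezh2-deficient MEFs, carries neither.
Cdk1 (chr10:69352883-69353032, minus strand): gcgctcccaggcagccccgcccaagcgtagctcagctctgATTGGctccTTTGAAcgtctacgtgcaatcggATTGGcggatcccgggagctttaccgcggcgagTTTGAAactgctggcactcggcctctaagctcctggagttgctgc
Ccnb2 (chr9:70421525-70421674, minus strand): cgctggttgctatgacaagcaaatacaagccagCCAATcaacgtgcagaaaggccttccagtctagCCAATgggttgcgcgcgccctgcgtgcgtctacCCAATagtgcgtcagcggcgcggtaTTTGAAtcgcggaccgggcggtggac
Cdc20 (chr4:118437314-118437463, minus strand): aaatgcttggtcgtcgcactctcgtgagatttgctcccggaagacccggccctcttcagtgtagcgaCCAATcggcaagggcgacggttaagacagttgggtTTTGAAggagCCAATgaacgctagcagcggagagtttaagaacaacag
Ube2c (chr2:164769809-164769958, plus strand): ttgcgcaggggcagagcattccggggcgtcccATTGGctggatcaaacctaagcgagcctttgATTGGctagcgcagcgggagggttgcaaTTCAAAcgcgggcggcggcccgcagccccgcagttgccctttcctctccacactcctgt
Top2a (chr11:99024160-99024309, minus strand): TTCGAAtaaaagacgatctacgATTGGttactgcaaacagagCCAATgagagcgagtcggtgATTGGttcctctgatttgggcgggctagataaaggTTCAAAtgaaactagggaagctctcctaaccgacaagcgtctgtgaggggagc
Pttg1 (chr11:43425952-43426101, minus strand): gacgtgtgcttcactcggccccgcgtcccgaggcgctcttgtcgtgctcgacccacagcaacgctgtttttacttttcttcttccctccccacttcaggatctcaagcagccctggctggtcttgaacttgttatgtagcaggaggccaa
The stretch of Cdk1 holds 2 homology regions and 2 CCAAT letters, that of Ccnb2 1 and 3, that of Cdc20 1 and 2, that of Ube2c 1 and 2, and that of Top2a 2 and 3. A match in letters is a description of the window and no evidence that a factor binds there.

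Before the results, 3 features of the arrays need stating. First, the wild-type MEF arrays listed for Snf5 Ezh2-deficient MEFs (set 2) were the same 3 hybridisations as those listed for Ezh2-deficient MEFs (set 1). Log2 differences were taken across 5565 bright probe sets, less the mean offset between both sets for each probe set. Their SD was 0.022 to 0.024 between arrays of equal number and 0.152 to 0.158 between unequal ones. They were therefore counted once, and both mutant comparisons shared all their controls. Second, the targeted RNAs were low in the groups named for them. Ezh2 lay between 7.81 and 7.95 in wild-type MEFs of set 1 and between 5.63 and 5.81 in Ezh2-deficient MEFs, and Smarcb1 lay between 9.08 and 9.25 in set 2 and between 6.56 and 6.83 in Snf5 Ezh2-deficient MEFs. In these Snf5 Ezh2-deficient MEFs Ezh2 lay between 6.10 and 6.65, against 8.02 to 8.07 in set 2, which is above its level in Ezh2-deficient MEFs. Last, the arrays of wild-type CD8+ T cells were far from uniform, as given with the T cell results. Median log2 intensity was 7.26 to 7.32 on the MEF arrays and 8.04 to 8.37 on the T cell arrays. Both were normalised separately, so levels are not compared between them. The mean of 9 fibroblast markers was at least 11.03 on every MEF array. The labels speak of biological replicates without saying that each came from its own embryo or mouse, and the p-values cover no more than the spread among these samples, which may be technical.

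Ezh2-deficient MEFs had lower RNA levels of mitosis genes. With limma and Benjamini-Hochberg adjustment over all 22626 probe sets (threshold 0.05), 21 of the 42 genes were called lower, against 2.47% of all genes, and 0 were called higher, against 1.02%. At an unadjusted p below 0.05, 35 were lower and 0 higher, against 13.9% and 11.4% of all genes. The log2 difference was negative for 41 of 42 genes, with a median of -0.47 against 0.004 over all genes. The groups did not overlap for 32 genes, all of them lower, where 17.7% of all genes were lower and 15.1% higher without overlap. The mean log2 level of the 42 genes was 7.94, 8.21 and 8.12 on the wild-type arrays and 7.57, 7.63 and 7.77 on the Ezh2-deficient arrays, so that every mutant array lay below every wild-type array.

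The count rests on few arrays. It was 3 without wild-type replicate 2 (against 0.516% of all genes) and 5 without wild-type replicate 3 (0.767%). Leaving out Ezh2-deficient replicate 1 gave 4 (0.694%) and replicate 2 gave 13 (2.26%). Without wild-type replicate 1 it was 22 (1.64%), and without Ezh2-deficient replicate 3 it was 20 (1.4%). Calls over all genes thus became fewer as well, and the median difference of the 42 genes stayed between -0.54 and -0.41. The Y-linked gene Eif2s3y was at 8.24, 3.65 and 4.00 on the Ezh2-deficient arrays and between 8.02 and 8.53 on all other MEF arrays. With its level as a covariate, 5 genes were called lower, against 0.379% of all genes, while the median difference was -0.52. Only replicate 1 of the Ezh2-deficient arrays had an Eif2s3y level like that of the other groups. The difference fitted with this covariate therefore rests mainly on that array.

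Among kinases and cyclins, 4 of 7 fell. Cdk1, the catalytic partner of cyclin B, was at 9.94, 10.22 and 10.07 on the wild-type arrays and at 9.32, 9.42 and 9.54 on the Ezh2-deficient arrays. All mutant arrays lay below all wild-type arrays, and Cdk1 fell by 0.65 (SE 0.0963, 1.57-fold, adjusted p = 0.0105), a call that no alternative ended. Plk1, which drives mitotic entry and centrosome maturation, was at 7.93, 8.19 and 8.22 against 7.57, 7.54 and 7.65. The groups did not overlap, and Plk1 fell by 0.53 (SE 0.104, adjusted p = 0.0298). That call ended when any array other than wild-type replicate 1 was left out. Ccna2, cyclin A2, was at 8.97, 9.36 and 9.25 against 8.45, 8.59 and 8.62. No arrays overlapped, and Ccna2 fell by 0.64 (adjusted p = 0.0168) and Aurka, the kinase of spindle poles, by 0.62 (adjusted p = 0.023). Aurkb, the kinase of the chromosomal passenger complex, was at 6.48, 6.99 and 6.79 against 6.27, 6.26 and 6.48. The groups overlapped at their edges, and the difference of -0.42 (SE 0.168) did not pass the test (adjusted p = 0.173). Ccnb2, cyclin B2, differed by -0.51 (adjusted p = 0.0621) and Nek2, a centrosomal kinase, by -0.18 (adjusted p = 0.266).

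All 5 chromosome structure genes fell, which no other group of more than 1 member did. Mki67, whose product coats mitotic chromosomes, was at 8.39, 8.89 and 8.53 in wild type against 7.75, 7.87 and 8.14. It fell by 0.68 (SE 0.131, 1.61-fold, adjusted p = 0.0256), and all mutant arrays were lower. Top2a, the topoisomerase that untangles sister chromatids, was at 8.90, 9.39 and 9.11 against 8.32, 8.54 and 8.62. Here too the groups were apart, and it fell by 0.64 (SE 0.129, adjusted p = 0.0315). The calls of both Mki67 and Top2a ended without wild-type replicate 2, wild-type replicate 3 or Ezh2-deficient replicate 1. The condensin subunits fell as well: Smc2 by 0.61 (adjusted p = 0.0129), Smc4 by 0.47 (adjusted p = 0.0172) and Ncaph by 0.48 (adjusted p = 0.0121).

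**Figure D1:**
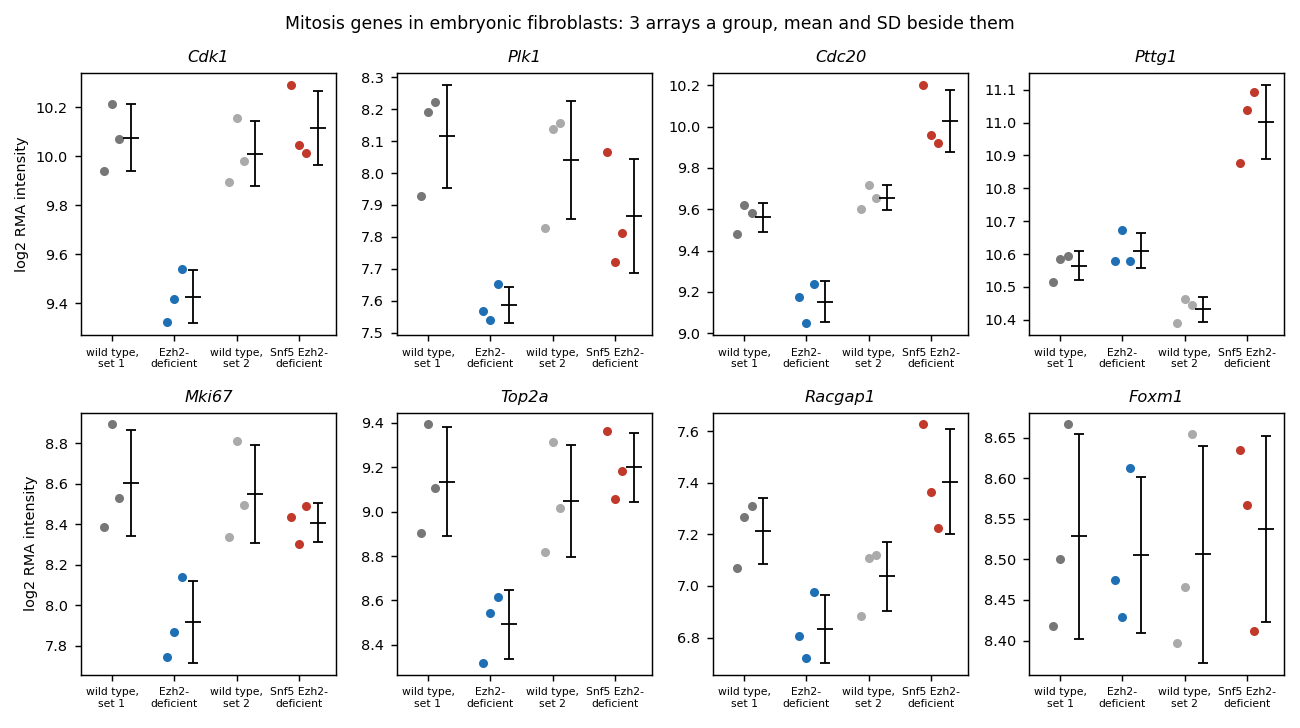
Log2 RMA intensity of 8 mitosis genes on each MEF array (points, 3 per group), with the mean and SD of the group beside them; each panel has its own axis. For Cdk1 the Ezh2-deficient arrays lie between 9.32 and 9.54, under all arrays of the other groups, while Pttg1 is highest in Snf5 Ezh2-deficient MEFs (10.88 to 11.09) and Foxm1 overlaps in all groups.

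The other roles followed in part. Of the spindle checkpoint genes, Mad2l1 fell by 0.44 (adjusted p = 0.037) and Ttk by 0.43 (adjusted p = 0.0321), while Bub1 differed by -0.55 (adjusted p = 0.0784) and Bub1b by -0.24 (adjusted p = 0.203). Of the anaphase regulators, Cdc20 fell by 0.41 (adjusted p = 0.0343) and Ube2c, the ubiquitin-conjugating enzyme of the anaphase-promoting complex, by 0.44 (adjusted p = 0.0465). Pttg1, securin, was at 10.52, 10.59 and 10.59 in wild type and at 10.58, 10.67 and 10.58 in the mutant. These values overlap, and Pttg1 was the only one of the 42 genes with a difference above 0 (0.05, SE 0.0678, adjusted p = 0.71). Of 7 kinesins, only Kif20a, which acts in cytokinesis, passed the test. It was at 7.67, 7.99 and 7.83 against 6.84, 7.23 and 7.27, the largest fall of the 42 genes (0.72, SE 0.13, 1.64-fold, adjusted p = 0.0221), and its call ended without wild-type replicate 2, wild-type replicate 3 or Ezh2-deficient replicate 1, as did that of Ccna2. The kinesin Cenpe lay among the lowest 25% of values on all MEF arrays, so its difference of -0.33 is one between values near the floor.

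Centromere and kinetochore genes fell in 4 of 6 cases. Ndc80 and Nuf2, which together bind microtubules at the kinetochore, fell by 0.52 (adjusted p = 0.0239) and 0.57 (adjusted p = 0.0172). Incenp, the scaffold of the passenger complex, fell by 0.49 (SE 0.0618, adjusted p = 0.005), the smallest adjusted p of the 42 genes, and Birc5, survivin, by 0.59 (adjusted p = 0.0395). Cenpa, the centromeric histone, differed by -0.41 (adjusted p = 0.0967). Of the spindle assembly genes, Prc1, which bundles midzone microtubules, fell by 0.51 (adjusted p = 0.0266) and Spag5 by 0.61 (adjusted p = 0.0316). The cytokinesis factor Ect2 fell by 0.61 (adjusted p = 0.0244). Foxm1, the transcription factor among the members, was at 8.42, 8.50 and 8.67 against 8.47, 8.43 and 8.61. These values interleave, with a difference of -0.02 (SE 0.0864, adjusted p = 0.896) whose sign turned under quantile normalization and without wild-type replicate 3 or Ezh2-deficient replicate 2.

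In Snf5 Ezh2-deficient MEFs the mitosis genes stayed near the wild-type level on the whole, and 3 of them rose. The test called 3 of 42 higher, against 13.2% of all genes, and 1 lower, against 14.3%, so that calls were rarer here than over all genes. At an unadjusted p below 0.05 the counts were 6 and 2, against 18% and 20%, and without overlap 6 were higher and 1 lower, against 20.6% and 22.6%. The median difference was 0.04, against -0.003 over all genes, and 28 of 42 values were positive. The sign of that median turned to -0.02 without wild-type replicate 1 or without mutant replicate 1. The mean level of the 42 genes was 7.93, 8.18 and 8.10 on the wild-type arrays of set 2 and 8.28, 8.05 and 8.04 on the mutant arrays, where replicate 1 held the highest value for 38 genes.

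Pttg1 was at 10.39, 10.46 and 10.44 in wild type and at 10.88, 11.04 and 11.09 in Snf5 Ezh2-deficient MEFs. All mutant arrays were higher, and Pttg1 rose by 0.57 (SE 0.0678, 1.48-fold, adjusted p = 0.000204). Read through the gene's most variable probe set instead, the difference was 0.18 (adjusted p = 0.378), which ends the call, and the remaining probe set gave 0.42 (adjusted p = 0.00109). Cdc20, the activator of the anaphase-promoting complex, was at 9.60, 9.72 and 9.65 against 10.20, 9.96 and 9.92. Again no arrays overlapped, and Cdc20 rose by 0.37 (SE 0.0843, adjusted p = 0.00838). Racgap1, a GTPase regulator of cytokinesis, was at 6.88, 7.11 and 7.12 against 7.63, 7.36 and 7.22, which is a rise of 0.37 (SE 0.111, adjusted p = 0.0336). The call of Racgap1 ended without any single wild-type replicate and without mutant replicate 1 or 2. A second probe set of Racgap1 gave 0.35 and did not pass (adjusted p = 0.0552). Tpx2, which carries Aurora A to the spindle, was at 8.23, 8.61 and 8.48 against 8.26, 8.03 and 7.95. Mutant replicate 1 lay above the lowest wild-type array, and Tpx2 fell by 0.36 (SE 0.102, adjusted p = 0.0247). That call ended without wild-type replicate 2 or 3 or mutant replicate 2 or 3, each of which left 0 genes lower.

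Apart from Cdc20, the genes called lower in Ezh2-deficient MEFs were not called here. Cdk1 was at 9.89, 10.15 and 9.98 in wild type and at 10.29, 10.05 and 10.01 in the mutant, a difference of 0.11 (SE 0.0963, adjusted p = 0.486) with overlapping groups. Top2a was at 8.82, 9.32 and 9.02 against 9.36, 9.06 and 9.18 and differed by 0.15 (SE 0.129, adjusted p = 0.456). Mki67 was at 8.34, 8.81 and 8.49 against 8.43, 8.30 and 8.49 and differed by -0.14 (SE 0.131, adjusted p = 0.5). For all 3 genes the groups overlapped. Plk1 was at 7.83, 8.14 and 8.16 against 8.07, 7.72 and 7.81 (difference -0.17, adjusted p = 0.268). Aurkb and Foxm1 had not been called in Ezh2-deficient MEFs. Aurkb was at 6.58, 6.96 and 6.76 against 7.33, 6.997 and 6.60 (difference 0.21, adjusted p = 0.422). Foxm1 was at 8.40, 8.47 and 8.65 against 8.63, 8.57 and 8.41 (difference 0.03, adjusted p = 0.839), and its sign turned with another probe set and without replicate 1 of either group. The arrays of Plk1, Aurkb and Foxm1 overlapped as well.

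The difference between both mutants was tested directly. Of the 42 genes, 35 were higher in Snf5 Ezh2-deficient than in Ezh2-deficient MEFs, against 16.3% of all genes, and 0 were lower, against 13.6%. At an unadjusted p below 0.05 the counts were 37 and 0, against 21.3% and 20.5% of all genes. Without overlap 36 were higher and 0 lower, against 22.5% and 21.7%. The median difference was 0.52, against -0.03 over all genes. The largest were Nuf2 with 0.85 (SE 0.0984, adjusted p = 0.00018), Cdca3 with 0.82 (SE 0.118, adjusted p = 0.000699), Top2a with 0.79 (SE 0.129, adjusted p = 0.00137) and Cdc20 with 0.78 (SE 0.0843, adjusted p = 0.00012). Nuf2 was at 6.39, 6.64 and 6.81 in Ezh2-deficient MEFs, beside 7.22, 7.33 and 7.02 in the wild type of that set, and at 7.64, 7.54 and 7.69 in Snf5 Ezh2-deficient MEFs, beside 7.32, 7.37 and 7.36. Cdca3, a partner of cell cycle ubiquitin ligases, was at 7.60, 7.82 and 7.94 beside 8.15, 8.45 and 8.25, and at 8.99, 8.67 and 8.70 beside 8.27, 8.66 and 8.46. Both genes thus lay below wild type on every Ezh2-deficient array and above it on every Snf5 Ezh2-deficient array, Cdca3 narrowly (8.67 against 8.66). Against wild type, neither was called higher in Snf5 Ezh2-deficient MEFs (Nuf2 0.28, Cdca3 0.32). In Ezh2-deficient MEFs Nuf2 was called lower (-0.57) and Cdca3 was not called (-0.49). In the direct comparison Cdk1 followed with 0.75 (adjusted p = 0.00032), Aurkb with 0.63 (adjusted p = 0.0196), Mki67 with 0.55 (adjusted p = 0.0114) and Plk1 with 0.35 (adjusted p = 0.0299). For all 8 of these genes the arrays of both mutants, on a common scale, did not overlap. The calls of Plk1 and Aurkb ended without Ezh2-deficient replicate 1 or 2 or Snf5 Ezh2-deficient replicate 1, that of Plk1 also without Snf5 Ezh2-deficient replicate 3 and that of Aurkb without replicate 2.

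By role, all of the spindle checkpoint (4 of 4), anaphase (4 of 4), cytokinesis (3 of 3) and chromosome structure genes (5 of 5) were called higher, with 6 of 7 kinases and cyclins, 5 of 6 centromere and kinetochore genes, 4 of 5 spindle assembly genes and 4 of 7 kinesins. Nek2, Kif4, Kif23, Kif22, Cenpf, Tpx2 and Foxm1 were not called. Set beside the comparisons with wild type, 20 genes were lower in Ezh2-deficient MEFs, not called in Snf5 Ezh2-deficient MEFs and higher in the direct comparison. A further 12 were called in the direct comparison alone, Pttg1 and Racgap1 were higher in Snf5 Ezh2-deficient MEFs than in both others (Pttg1 by 0.02 in the direct comparison when read through its most variable probe set, adjusted p = 0.913), and Cdc20 was lower in Ezh2-deficient and higher in Snf5 Ezh2-deficient MEFs. Both mutants were measured against the same controls, so these patterns share the controls' error. The fit leaves out the error of the scale between both sets. With the 12 MEF arrays as deposited, 19 genes were called higher, against 9.69% of all genes, at the same median of 0.52. With Eif2s3y as a covariate, 23 were called, against 8.91%, at a median of 0.62. That fit again rests mainly on Ezh2-deficient replicate 1.

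**Figure D2:**
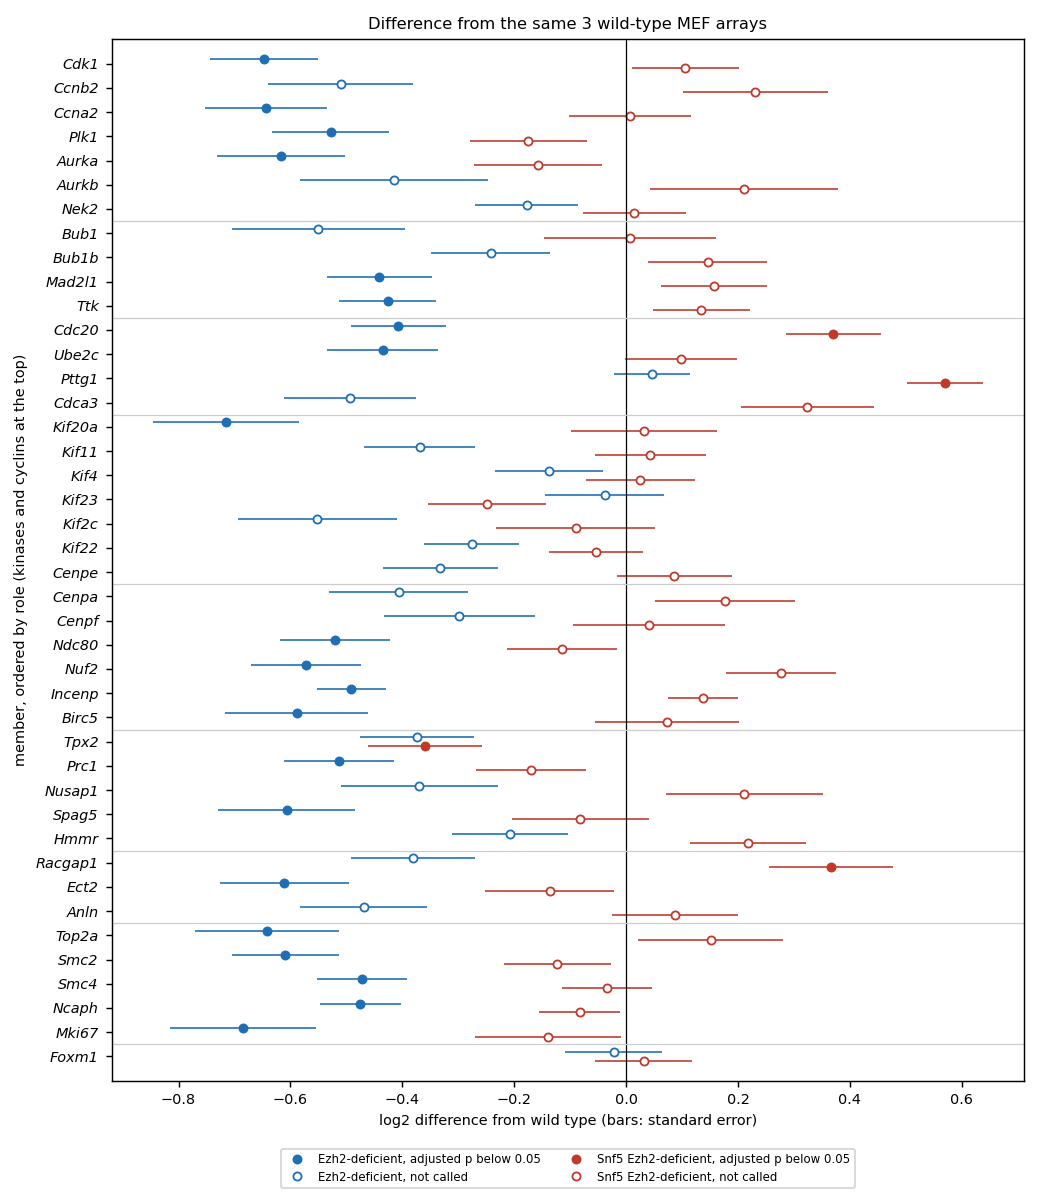
Log2 difference from wild type of the 42 genes in Ezh2-deficient (blue) and Snf5 Ezh2-deficient MEFs (red), with standard errors; filled points passed the threshold of 0.05 on the adjusted p, and lines divide the roles. The blue points lie below 0 for 41 genes with a median of -0.47, and the red points lie around 0 with a median of 0.04.

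Genes that act with the members were read from lists fixed by name. In Ezh2-deficient MEFs, the shares of all genes to set beside their counts were 2.47% lower and 1.02% higher. Of 51 other mitosis genes, 11 fell in Ezh2-deficient MEFs and 0 rose (9 of 51 values were positive, median -0.24), with the largest falls for Cenpk (0.75, adjusted p = 0.00571), Ncapg (0.61) and Ncapd2 (0.61). Replication genes fell in 17 of 37 cases (median -0.38), among them Tk1, thymidine kinase, by 0.81, Mcm5 of the replicative helicase by 0.76 and the origin loading factor Cdc6 by 0.67. The anaphase-promoting complex itself had 0 of 15 subunits and cofactors called, although all 15 values were negative (median -0.18). Mybl2, the Myb protein of the MuvB complex, fell by 0.43 (adjusted p = 0.0132) and Rbbp4, a histone chaperone of that complex, by 0.23. Of 7 CDK inhibitors, Cdkn2a rose by 1.26 (adjusted p = 0.0223) and Cdkn1b fell by 0.41.

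In Snf5 Ezh2-deficient MEFs, 7 of 51 other mitosis genes rose, near the 13.2% of all genes, and 4 fell, below the 14.3% of all genes (median 0.07). The largest changes were those of Gtse1 (1.02, adjusted p = 1.17e-05), the kinetochore gene Spc25 (0.86) and Ckap2 (0.80). Of 37 replication genes 2 fell, Mcm4 by 0.50 and Gins4 by 0.31. CDK inhibitors moved both ways: Cdkn2c rose by 1.73 (adjusted p = 8.99e-06) and Cdkn2a by 0.88, while Cdkn1c fell by 1.11, and in all 4 of 7 rose and 2 fell. Among 12 genes of the G1 phase, Rb1 rose by 1.12, Ccnd2 by 0.82, and Ccnd1 fell by 0.54. Cohesin genes had 3 of 9 called higher, led by the acetyltransferase Esco1, which rose by 0.83 here and by 0.94 in Ezh2-deficient MEFs.

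In the T cell arrays, mitosis genes were high in all 5 lymphomas and varied widely among wild-type CD8+ T cells. The mean log2 level of the 42 genes was 11.40, 11.31, 11.36, 11.41 and 11.63 on the lymphoma arrays. On the wild-type arrays, in order of replicate, it was 11.33, 10.35, 8.13, 8.47, 10.48 and 11.60. Replicates 1 and 6 of the wild type thus stood at the level of the lymphomas, and replicates 3 and 4 lay far below. The spread between the highest and the lowest array, as a median over the genes, was 3.78 in wild type and 0.58 in lymphomas, and it was wider in wild type for 42 of 42 genes. Replicate 3 was the lowest wild-type array for 29 genes, replicate 4 for 8 and replicate 5 for 5, while replicate 6 was the highest for 29 and replicate 1 for 10.

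With all 6 wild-type arrays, 2 of 42 genes were called higher in the lymphomas, against 9.13% of all genes, and 0 lower, against 7.71%. At an unadjusted p below 0.05 the counts were 17 and 1, against 16.8% and 15% of all genes. The difference was positive for 40 of 42 genes, with a median of 1.46 against -0.07 over all genes, and the SE of the members had a median of 0.654. With array weights, 31 genes were called higher, against 13.9% of all genes. The count was 6 without wild-type replicate 1 (9.42% of all genes) and 10 without wild-type replicate 6 (9.74%). It was 1 without wild-type replicate 2, 3 or 4 or without lymphoma 1, 3, 4 or 5 (5.98% to 8%). The lymphoma arrays lay above all wild-type arrays for 3 genes, Mad2l1, Ndc80 and Cenpa, a share near the 7.09% of all genes, and below them for 0, against 5.7%.

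Mad2l1, a checkpoint protein that sequesters Cdc20, ranged from 8.94 to 11.20 in wild type (median 10.11) and was at 11.74, 11.56, 11.81, 12.03 and 11.79 in the lymphomas. No arrays overlapped, and it rose by 1.60 (SE 0.378, 3.03-fold, adjusted p = 0.0165), a call that no alternative ended. Ndc80 of the kinetochore ranged from 7.79 to 10.36 in wild type (median 8.90) and was at 10.55, 10.44, 10.73, 10.80 and 11.003 in the lymphomas. It rose by 1.60 (SE 0.437, adjusted p = 0.031) without overlap. That call ended without wild-type replicate 2, 3 or 4 and without lymphoma 1, 3, 4 or 5. For both genes the lowest wild-type array was replicate 5, unlike for most of the 42.

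Cdk1 ranged from 8.81 to 12.46 in wild type (median 11.47) and was at 12.48, 12.48, 12.45, 12.68 and 12.55 in the lymphomas. The highest wild-type array reached the lymphoma range, and the difference of 1.61 (SE 0.666) did not pass the test (adjusted p = 0.132). Aurkb ranged from 5.33 to 10.46 (median 7.99) against 10.33, 10.13, 9.76, 9.85 and 10.41, a difference of 2.26 (SE 0.896, adjusted p = 0.116) with overlap at the top. Plk1 ranged from 6.73 to 10.08 (median 9.01) against 9.60, 9.98, 9.35, 9.53 and 9.72 (difference 1.13, adjusted p = 0.208). Mki67 ranged from 9.32 to 13.68 (median 12.62) against 13.01, 12.84, 12.83, 12.82 and 13.27. The highest wild-type array exceeded every lymphoma, and the difference of 1.10 (SE 0.787) did not pass (adjusted p = 0.375). Top2a ranged from 9.72 to 12.90 (median 12.08) against 12.77, 12.75, 12.75, 12.62 and 12.92 (difference 1.18, adjusted p = 0.208). Foxm1 ranged from 7.22 to 9.99 (median 7.91) against 9.40, 9.32, 9.51, 9.34 and 10.43 (difference 1.39, adjusted p = 0.0769). For each of these genes wild-type replicate 3 or 4 gave the lowest value, and replicate 1 or 6 the highest.

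**Figure D3:**
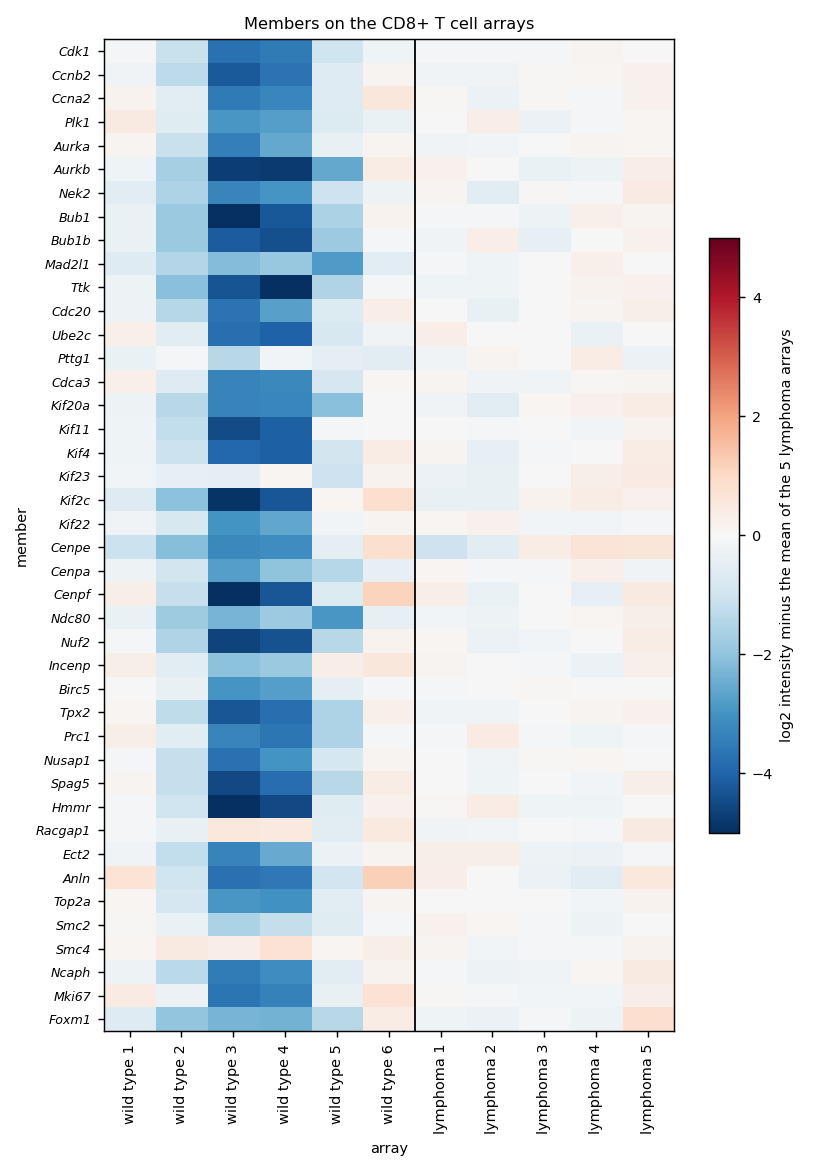
Log2 intensity of each of the 42 genes (rows, by role) on each T cell array (columns), minus the mean of the 5 lymphoma arrays of that gene. Wild-type replicates 3 and 4 are blue (lower) for most genes and replicates 1 and 6 are close to the lymphomas, while Smc4, Racgap1, Kif23 and Pttg1 show little of this pattern.

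Markers of other cells also differed between the T cell arrays, not all of them in the order of the mitosis genes. Myeloid markers (10 genes) had mean levels of 12.59 and 12.51 on wild-type replicates 1 and 6, of 8.67 and 8.07 on replicates 2 and 5 and of 6.45 and 6.70 on replicates 3 and 4, with a range of 8.77 to 10.79 in the lymphomas. The granule genes Mpo and Elane were at 14.002 and 13.19 on replicate 1 and at 13.83 and 13.37 on replicate 6, against 4.49 and 5.57 on replicate 3. B cell markers (5 genes) stood at 10.47 and 10.46 on replicates 1 and 6 and between 7.28 and 7.80 on the other 4, above their range of 5.92 to 6.43 in the lymphomas. Erythroid markers (5 genes) were highest on replicates 5 and 2 (9.56 and 9.21), at 8.33 and 8.60 on replicates 1 and 6 and lowest on replicates 4 and 3 (5.34 and 5.66). CD4 T cell markers (3 genes) ranged from 7.07 to 8.29 on replicates 1, 2, 5 and 6 and were at 5.77 and 5.73 on replicates 3 and 4. CD8 T cell markers (7 genes) were lowest on replicates 1 and 6, at 11.09 and 10.59, and between 12.71 and 13.31 on the other 4. Cd8b1 itself was at 9.35 and 8.07 on replicates 1 and 6 and between 12.53 and 13.61 on the rest.

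The lymphomas differed widely among themselves in myeloid (8.77 to 10.79) and erythroid markers (5.57 to 7.60), and in CD8 T cell markers from 11.38 to 12.98. B cell (5.92 to 6.43) and CD4 T cell markers (5.56 to 6.02) varied less, and the mean of the mitosis genes stayed close. Single mitosis genes varied more, Cenpe most, with 8.61 and 9.09 in lymphomas 1 and 2 and 10.03 to 10.29 in lymphomas 3 to 5. Mpo was at 12.08, 11.21 and 12.33 and the erythroid factor Klf1 at 7.77, 10.00 and 8.53 in lymphomas 1, 2 and 5. In lymphomas 3 and 4 Mpo was at 6.30 and 7.67 and Klf1 at 5.65 and 5.69. Smarcb1, the gene of Snf5, was at 8.30, 8.49 and 8.67 in lymphomas 1, 2 and 5 and at 5.81 and 5.64 in lymphomas 3 and 4, against 10.38 to 11.48 in wild type. The mean of the 42 genes in lymphomas 3 and 4 (11.36 and 11.41) lay within the range of the other 3 (11.31 to 11.63). With the mean of a marker list as a covariate, the count of genes higher was 17 (myeloid), 36 (erythroid), 38 (B cell) and 38 (CD4 T cell). Over all genes the shares were 12%, 9.17%, 14.8% and 9.13%. The B cell markers had no level in common between the groups, and the CD4 T cell markers of the lymphomas (5.56 to 6.02) met only wild-type replicates 3 and 4, so that the fitted difference with these lists rests on extrapolation. What part other cells had in the levels of single arrays was not tested.

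**Figure D4:**
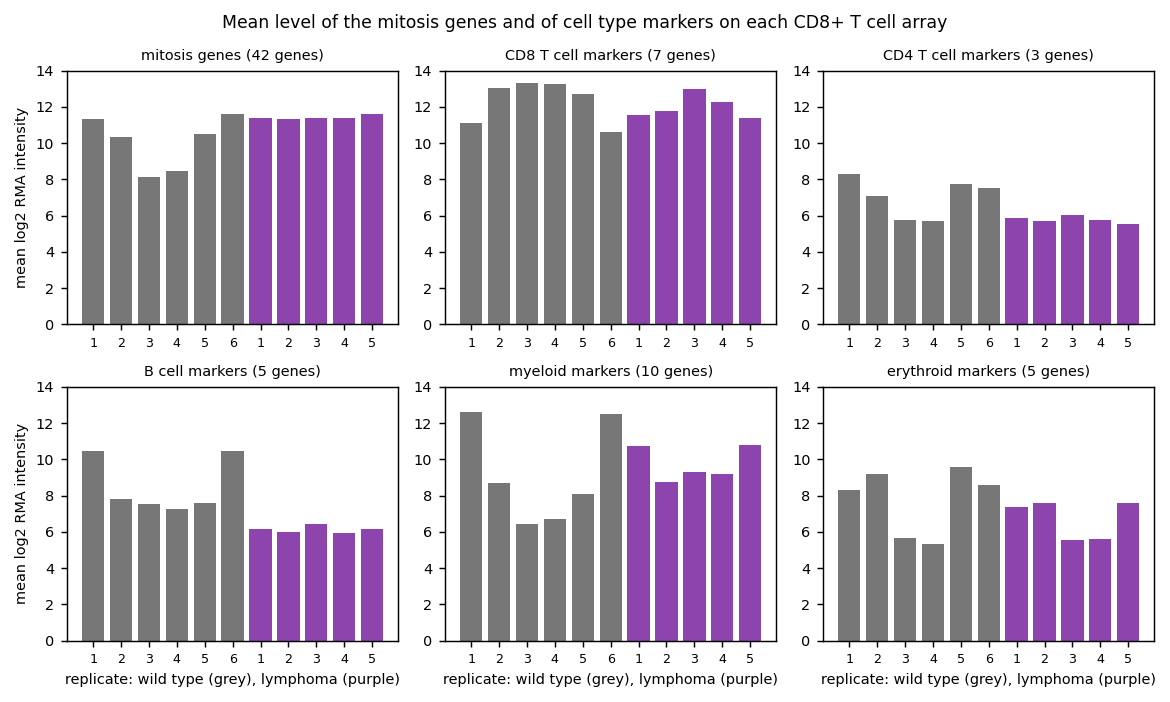
Mean log2 intensity of the 42 mitosis genes and of 5 lists of cell type markers on each T cell array, wild type in grey (replicates 1 to 6) and lymphomas in purple (1 to 5), on axes that start at 0. The mitosis genes are lowest on wild-type replicates 3 and 4 (8.13 and 8.47), where the CD8 T cell markers are highest (13.31 and 13.27) and the myeloid, erythroid and CD4 T cell markers are low.

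Without wild-type replicates 1 and 6, the arrays with the lowest Cd8a and Cd8b1, 33 of 42 genes were called higher in the lymphomas and 0 lower, against 13.2% of all genes in each direction. At an unadjusted p below 0.05, 38 were higher and 1 lower, against 19.5% and 22.7% of all genes. The arrays left out are also those on which the mitosis genes were highest, and the choice was made with that known, so the larger count describes the remaining arrays and adds no independent evidence. The median difference was 2.19, against -0.11 over all genes. Of the 10 myeloid markers, 5 were also called higher in the lymphomas here (median 2.24), among them Lyz2 by 3.63 and Cd68 by 3.77, and their part in the result was not tested. The largest differences were those of Aurkb (3.42, SE 0.62, 10.7-fold, adjusted p = 0.00413), Bub1 (3.28, SE 0.728, adjusted p = 0.0112), Ttk (3.23, SE 0.661, adjusted p = 0.00759) and Bub1b (3.06, SE 0.562, adjusted p = 0.00444), the last 3 of them checkpoint kinases or kinase-like proteins. Bub1 was at 9.77, 6.18, 7.39 and 10.04 on wild-type replicates 2 to 5 and between 11.38 and 11.87 in the lymphomas. Ttk was at 8.95, 6.75, 6.05 and 9.57 against 10.85 to 11.26, and Bub1b at 9.70, 7.41, 7.18 and 9.75 against 11.18 to 11.90. In these 3 genes all lymphomas were above all 4 arrays, and so were they for 33 of the 42 genes, against 13% of all genes. They lay below all 4 for 0 of the 42, against 14.1%.

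By role, all 7 kinases and cyclins, all 4 checkpoint and all 5 spindle assembly genes were called higher, with 3 of 4 anaphase regulators, 4 of 7 kinesins, 4 of 6 centromere and kinetochore genes, 2 of 3 cytokinesis genes, 3 of 5 chromosome structure genes and Foxm1 (2.03, SE 0.289, adjusted p = 0.00119). Cdk1 rose by 2.34 (adjusted p = 0.018), Plk1 by 1.72 (adjusted p = 0.0355) and Top2a by 1.83 (adjusted p = 0.0318). Mki67 did not pass the test (1.93, SE 0.714, adjusted p = 0.0772) although its lymphoma arrays lay above all 4 wild-type arrays.

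**Figure D5:**
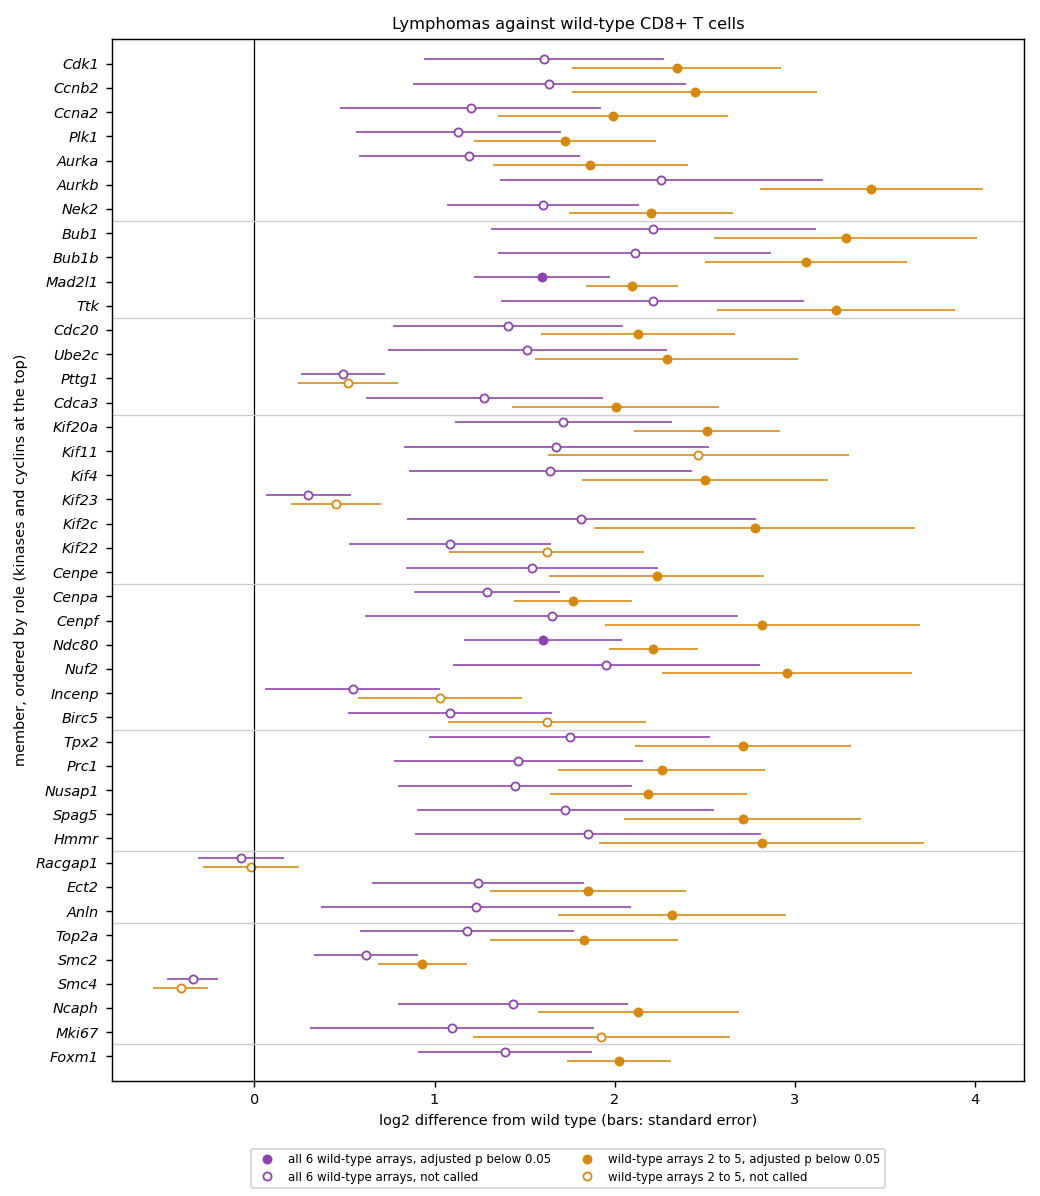
Log2 difference of the 42 genes between lymphomas and wild-type CD8+ T cells with all 6 wild-type arrays (purple) and with replicates 2 to 5 (orange), with standard errors; filled points passed the threshold of 0.05 on the adjusted p. The medians are 1.46 and 2.19, and 2 and 33 genes are filled.

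Some of the 42 genes did not share the pattern over wild-type arrays. Smc4, a condensin subunit, was between 12.75 and 13.35 on all wild-type arrays (median 12.95), highest on replicate 4, and at 12.77, 12.51, 12.54, 12.54 and 12.81 in the lymphomas. Its difference of -0.34 (SE 0.141, adjusted p = 0.128) was 1 of 2 below 0. Racgap1 was highest in wild type on replicates 3 and 4 (11.64 on both), had a wild-type median of 11.32, and was at 10.94, 11.01, 11.10, 11.04 and 11.56 in the lymphomas (difference -0.08, adjusted p = 0.854). For both genes the groups overlapped, and the highest wild-type value fell on replicates where most of the 42 genes were lowest. Pttg1 ranged from 11.84 to 13.18 (median 12.82) against 12.96 to 13.59, and Kif23, a kinesin of the midzone, from 10.48 to 11.67 (median 11.22) against 11.12 to 11.90. Pttg1 and Kif23 also overlapped, with differences of 0.49 (adjusted p = 0.182) and 0.30 (adjusted p = 0.421). In Ezh2-deficient MEFs these 4 genes had no common pattern: Pttg1 differed from wild type by 0.05, Kif23 by -0.04 and Racgap1 by -0.38 (adjusted p = 0.0862), none of which passed the test, and Smc4 fell by 0.47. A second probe set of Racgap1 did pass there, with -0.52 (adjusted p = 0.0465).

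The related lists were read in the T cell arrays as well. Of all genes, 9.13% were called higher and 7.71% lower with all wild-type arrays, and 13.2% in each direction with replicates 2 to 5. Of 51 other mitosis genes, 8 rose with all wild-type arrays and 31 with replicates 2 to 5, with 0 lower in both. Psrc1, a spindle gene, rose by 3.24 (adjusted p = 0.00541) and by 4.02, Trip13 by 2.37 and 3.17, and Gtse1 by 2.26 and 3.00. Of 37 replication genes, 17 rose with all wild-type arrays and 23 with replicates 2 to 5, and all 37 values were positive in both. Rfc3, a clamp loader subunit, rose by 2.15 (adjusted p = 0.000458) with all arrays, Orc1 by 2.11 and Tk1 by 1.98. The anaphase-promoting complex had 5 of 15 genes higher and 1 lower with all arrays, led by Cdc27 (1.19). Of 7 CDK inhibitors, Cdkn2a rose by 4.62 (adjusted p = 0.00151), Cdkn1a by 3.85 and Cdkn2b by 2.38, while Cdkn1b fell by 1.17.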

How the data were processed

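RNA was measured on 23 Affymetrix mouse arrays. The deposited values are RMA intensities (robust multichip average), per the labels' protocols, on a linear scale and in 3 separately normalised blocks of 6, 6 and 11 arrays, as judged from the values. No label names the RMA software or its version. They were log2-transformed here with no pseudocount. Of the probe sets, 64 controls were left out and 22626 were tested with limma 3.58.1 (R 4.3.3), with Benjamini-Hochberg adjustment and a threshold of 0.05. Platform annotation gave 20380 probe sets 1 gene, 691 several and 1555 none.

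The 9 distinct MEF arrays were fitted together (6 residual degrees of freedom), with set 2 brought to set 1 by the offset of the repeated controls. The 11 T cell arrays had a fit of their own (9 degrees of freedom). The number of arrays limits the precision. The scripts were tested on simulated data. Members, gene lists and the choice of arrays for the second T cell comparison were made with earlier results of these data known. Array values are printed for Mki67, Top2a, Cdk1, Plk1, Aurkb and Foxm1 and for up to 4 called genes with the largest rise or fall. In related lists, up to 3 called genes are named. Additional genes were named after their values were seen. Alternatives were quantile normalization, median centring, a filter on dim probe sets, an intensity trend, array weights, the most variable probe set, a replicate block, the own set only or all 12 MEF arrays, Eif2s3y as a covariate and leaving out each array. Marker covariates were added after seeing the data.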

Additional observations from a re-analysis of the deposited data

Results flagged for a closer look

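In 84 groups of members and T cell arrays, where chance alone marks about 5% of groups, 4 arrays stood apart from the rest of their group. Pttg1 was low on wild-type CD8 replicate 3 (11.8), Prc1 stood apart on lymphoma 2 (12.1), and lymphoma 5 was high in Racgap1 (11.6) and Foxm1 (10.4).

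The effects of the 2 MEF mutants differed, by the direct limma contrast, for the 8 genes singled out there. The differences were 0.55 for Mki67, 0.79 for Top2a, 0.75 for Cdk1, 0.35 for Plk1, 0.63 for Aurkb, 0.85 for Nuf2, 0.82 for Cdca3 and 0.78 for Cdc20.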

How the results depend on the processing

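The median difference of the 42 genes kept its direction under all alternatives run in the Ezh2-deficient, direct and T cell comparisons. Genes lower in Ezh2-deficient MEFs numbered 21 (against 2.47% of all genes), but 10 with the replicate block (1.2%) and 5 with Eif2s3y as a covariate (0.379%). They numbered 3 to 22 when 1 array was left out (0.516% to 2.26%). In Snf5 Ezh2-deficient MEFs, 5 genes were higher with Eif2s3y (against 12.9% of all genes). When 1 array was left out, 0 to 1 were lower (against 11% to 12.9%). In the direct comparison 35 (against 16.3% of all genes) became 19 with 12 arrays as deposited (9.69%) and 23 with Eif2s3y (8.91%). In T cells, 2 genes higher (against 9.13% of all genes) became 31 (and 1 lower) with array weights (13.9%). They became 7 with the replicate block (8.7%) and 33 with wild-type replicates 2 to 5 (13.2%). The counts were 17, 36, 38 and 38 with myeloid, erythroid, B cell and CD4 T cell markers (1 lower with the last). The medians with these lists, in the same order, were 1.18, 2.00, 3.26 and 3.06, against 1.46 without a covariate. Leaving out 1 array gave 1 to 10 (5.98% to 9.74%). The causes were not tested. Foxm1 changed sign in Ezh2-deficient MEFs with quantile normalization (0.034) and across left-out arrays (-0.078 to 0.046), and in Snf5 Ezh2-deficient MEFs with the most variable probe set (-0.040) and across left-out arrays (-0.023 to 0.106). Not every same-numbered pair correlated above 0.1, so replicate numbers were not taken to pair the samples. The range was -0.0225 to 0.156 in the Ezh2 comparison, -0.045 to 0.0476 in the Snf5 Ezh2 comparison and -0.22 to 0.13 in the direct one. In T cells it was 0.0726 to 0.307, and 7 of 10 arrays correlated best with their own number, a hint from the data of pairing there. In the Ezh2 comparison 4 of 6 arrays did so, in the Snf5 Ezh2 comparison 2 of 6 and in the direct one 1 of 6.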

Other observations

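For 22 of the 42 genes, 37 further probe sets were measured, and they mostly had the sign of the probe set used: 29 of 37 in Ezh2-deficient MEFs, 24 in Snf5 Ezh2-deficient MEFs, 32 in the direct comparison and 31 in T cells. The exception that passed the limma test in the opposite direction was a dim probe set of Cdca3, with -0.23 (adjusted p = 0.00945) in the direct comparison against 0.82. A second probe set of Kif23 was lower in Snf5 Ezh2-deficient MEFs by -0.47 (adjusted p = 0.0344), where the one used gave -0.25. With all wild-type arrays, 4 of the 37 passed the limma test in the lymphomas, all higher, near the 9.13% of all genes called higher. They belong to genes whose probe set used did not pass. The further probe set of Incenp gave 1.67 (adjusted p = 0.0133), where the one used gave 0.55. The others were of Kif2c (1.42, adjusted p = 0.0183), Spag5 (1.34, adjusted p = 0.00963) and Hmmr (1.72, adjusted p = 0.0355).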
